A study of Mus musculus with 6 samples.

Results

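The 29 genes described here encode enzymes and regulators of cholesterol and fatty acid synthesis. They were chosen by name, from a list of the pathway's genes, with earlier results of these data known. All 29 were found among the 21442 named genes that the array measured. Each was read as the average log2 signal of its exon-level probe sets, 5 to 47 per gene, on every array. The samples were natural killer (NK) cells grown from the spleens of C57BL/6 mice (one label field writes the strain as C57BL/5). Splenocytes were stripped of T cells with antibody to Thy1.2 and complement, cultured for 7 days with 1000 IU of interleukin-2, and sorted by flow cytometry as CD3-CD122+ cells. Of the sorted subsets, Ly49C/I+ cells carried Ly49C or Ly49I and lacked Ly49G2, and Ly49G2+ cells carried Ly49G2 and lacked the others. There were 3 arrays of Ly49C/I+ cells and 3 of Ly49G2+ cells. Both subsets were sorted after the same kind of culture, so every value describes cells already driven by interleukin-2, and no freshly isolated cells are among the samples. Nothing in the labels ties a replicate to its own mouse or culture. The spread between arrays may therefore be technical, and the p-values measure no more than that spread. The source field of Ly49G2+ replicate 1 names Ly49C/I+ while its title names Ly49G, and the title was followed.

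Cells make cholesterol from acetyl-CoA through mevalonate, farnesyl diphosphate and squalene, and fatty acids from acetyl-CoA through malonyl-CoA. Both routes are driven by the SREBP transcription factors, encoded by Srebf1 and Srebf2. Their precursors sit in the endoplasmic reticulum with the escort protein Scap. When sterols are plentiful, Insig proteins hold this complex in place, and when sterols run low it moves on, is cleaved and switches on genes of synthesis and uptake. When sterols are in excess, oxidised sterols activate LXR receptors, which raise export genes such as Abca1. Lymphocytes that divide need membrane lipid, and stimulated NK cells are known to use SREBP activity for their growth and metabolism.

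The array medians were alike, at 7.73 to 7.75 (log2). The sorted cells carried the markers of NK cells. The 8 NK markers averaged 11.96 to 12.05 on the Ly49C/I+ arrays and 11.96 to 11.99 on the Ly49G2+ arrays. In the test between the subsets 0 of 8 passed, where 9.88% of all genes did. Of 6 myeloid markers, Cd14 passed with a log2 difference of -0.22, where 3.72% of all genes were lower. The myeloid list averaged 6.80 to 6.82 on the Ly49C/I+ arrays and 6.81 to 6.84 on the Ly49G2+ arrays. Of 4 erythroid markers 0 passed, where 9.88% of all genes did. At an unadjusted limma p under 0.05 the count was also 0, where 12.3% of all genes were higher and 10.7% lower. The 5 B cell markers averaged 5.87 to 5.96 on the Ly49C/I+ arrays and 5.83 to 5.96 on the Ly49G2+ arrays, close to the lower quartile of all probe sets (5.84). Although CD3+ cells were gated out, 4 of 9 T cell markers passed and were lower in Ly49C/I+ cells, where 3.72% of all genes were. Among them was Cd3e, with 8.37, 8.35 and 8.31 in Ly49C/I+ cells against 10.57, 10.59 and 10.55 in Ly49G2+ cells. Cd3d, Cd3g and Cd8a were the others, with log2 differences of -1.77, -0.99 and -0.72. The list averaged 7.51 to 7.58 on the Ly49C/I+ arrays and 8.15 to 8.19 on the Ly49G2+ arrays. Of 18 proliferation genes, 17 passed as higher in Ly49C/I+ cells, where 6.16% of all genes did. This list had moved between the subsets in earlier results of these data, so its count is not an independent result. Its mean level was 10.59 on each of the Ly49C/I+ arrays, against 10.19 to 10.24 on the Ly49G2+ arrays. The lowest p-values belonged to Prc1, Birc5, Aurkb, Bub1, Ccnb1 and Mcm7, with log2 differences of 0.36 to 0.70. These shifts run alongside the lipid gene results below, and their part in them was not tested.

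Among the lipid genes, Ly49C/I+ cells had more mRNA of Insig1, Lss, Nsdhl and Fasn than Ly49G2+ cells, by 1.16-fold to 1.32-fold, and less of Scd1. The other 24 genes did not pass the test. In all, 4 of 29 genes (13.8%) were higher in Ly49C/I+ cells at an adjusted p under 0.05, where 6.16% of all genes were, and 1 was lower, where 3.72% of all genes were (limma with Benjamini-Hochberg adjustment over 21442 genes). At an unadjusted p under 0.05 the counts were 13 higher and 1 lower, with 12.3% and 10.7% of all genes. All 29 lay above the median level of all genes. When the 10721 genes above it were tested alone, 15% were higher and 8.78% lower. In that test 10 of the 29 were higher and 1 lower. With each gene read as the median of its probe sets, 5 were higher (Insig1, Lss, Acat2, Dhcr7 and Idi1) and 1 lower (Scd1), where 2.18% and 1.04% of all genes were, or 3.22% in either direction. Without Ly49G2+ replicate 2, which limma's array weights put lowest, 4 were higher and 1 lower, where 5.19% and 3.57% of all genes were, or 8.75% in either direction. The 4 were not the same genes, as Nsdhl did not pass there (limma adjusted p = 0.0605) and Acat2 did (limma adjusted p = 0.0294). By the unadjusted p-values in the authors' deposited table, once adjusted over its named clusters, 5 were higher and 1 lower, where 3.07% and 1.94% of clusters were. A lower signal in such bulk samples can come from fewer cells of a type or from less RNA per cell, which cannot be told apart.

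Most of the differences were small and leaned the same way. The median of the 29 log2 differences (Ly49C/I+ minus Ly49G2+) was 0.093, beside -0.01 over all genes, and 23 of the 29 lay above 0, as did 45.6% of all genes. For 16 of the 29 genes (55.2%) every Ly49C/I+ array lay above every Ly49G2+ array, where 14.3% of all genes did so. For 2 more, Scd1 and Scd2, every Ly49C/I+ array lay below, where 13.5% of all genes did so, and the arrays of the remaining 11 overlapped. The 29 genes averaged 9.98 to 10.1 per array and all genes 7.51 to 7.53, so these shares are not matched for signal level. Averaged over the 29 genes, the deviations from each gene's mean over 6 arrays were 0.056, 0.056 and 0.026 on the Ly49C/I+ arrays and -0.047, -0.062 and -0.028 on the Ly49G2+ arrays. All Ly49C/I+ arrays were thus above all Ly49G2+ arrays, with replicate 3 of both subsets nearest to 0.

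**Figure D1:**
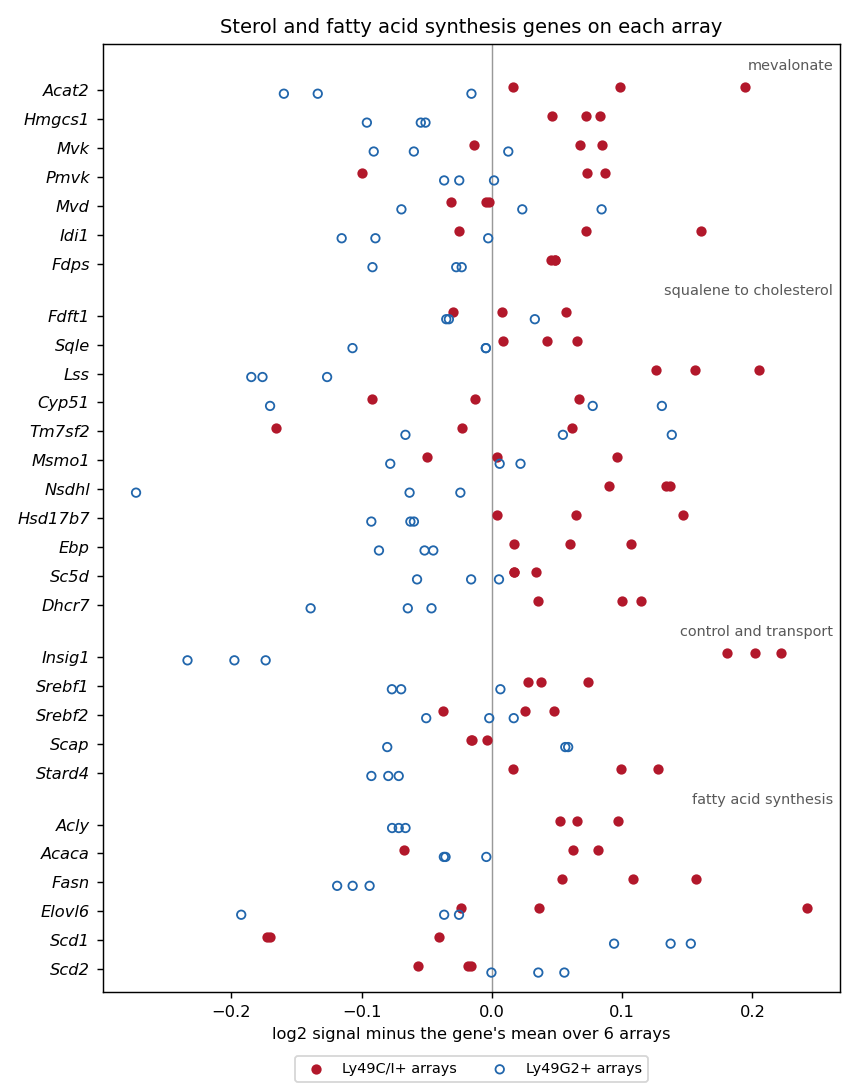
Log2 signal of each of the 29 genes on each array, as the deviation from that gene's mean over 6 arrays, with genes down the page by role. Filled red points are the 3 Ly49C/I+ arrays and open blue points the 3 Ly49G2+ arrays; in 16 genes every red point lies to the right of every blue one, and in Scd1 and Scd2 every red point lies to the left.

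The controllers of the pathway come first. Insig1, which retains the SREBP complex and is itself switched on by SREBP, had log2 signals of 11.58, 11.54 and 11.56 in Ly49C/I+ cells against 11.13, 11.19 and 11.16 in Ly49G2+ cells. The subsets were far apart relative to their spread, with means of 11.56 ± 0.021 and 11.16 ± 0.030 (SD, n = 3 each). The log2 difference was 0.40 ± 0.042 (SE), or 1.32-fold, with a limma adjusted p of 0.000383. All 5 probe sets of Insig1 were higher on every Ly49C/I+ array, by log2 differences of 0.30 to 0.51. The authors' deposited table gives Insig1 a ratio of 1.35.

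The other controllers did not pass. Srebf2, whose protein mainly drives sterol genes, had log2 signals of 11.55, 11.53 and 11.47 in Ly49C/I+ cells against 11.45, 11.50 and 11.52 in Ly49G2+ cells, and these overlapped. Its log2 difference was 0.02, with a 95% interval of -0.08 to 0.12. Srebf1, whose protein mainly drives fatty acid genes, had 10.08, 10.03 and 10.04 in Ly49C/I+ cells against 9.94, 9.93 and 10.01 in Ly49G2+ cells, without overlap, and an interval of -0.01 to 0.19. Scap had a log2 difference of -0.02 with an interval of -0.13 to 0.09. Stard4, a carrier that moves cholesterol between membranes and is an SREBP target, came close to the threshold. It had 9.60, 9.63 and 9.52 in Ly49C/I+ cells against 9.42, 9.41 and 9.43 in Ly49G2+ cells. These did not overlap, and the log2 difference of 0.16 ± 0.046 (SE) had a limma adjusted p of 0.0534.

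In the mevalonate arm, 0 of 7 enzymes passed, where 9.88% of all genes passed in either direction. At an unadjusted limma p under 0.05, 3 were higher, where 12.3% of all genes were. Of the 7 log2 differences 6 were above 0, beside 45.6% over all genes. Acat2, the thiolase that joins acetyl-CoA units, had 8.66, 8.56 and 8.48 in Ly49C/I+ cells against 8.33, 8.45 and 8.30 in Ly49G2+ cells. The arrays did not overlap, although replicate 3 of Ly49C/I+ and replicate 2 of Ly49G2+ lay only just apart. The log2 difference was 0.21 ± 0.059 (SE), with a limma adjusted p of 0.0581. Read as the median of its probe sets, Acat2 differed by 0.40 (limma adjusted p = 0.0203). Hmgcs1, which makes HMG-CoA, had 10.56, 10.54 and 10.57 in Ly49C/I+ cells against 10.44, 10.40 and 10.44 in Ly49G2+ cells. These sets were tight and separate, with a log2 difference of 0.13 ± 0.042 (SE) and a limma adjusted p of 0.0773.

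Idi1 and Fdps, which make the isoprenoid units that build squalene, had log2 differences of 0.14 and 0.09. The values of Idi1 overlapped, with 10.22, 10.12 and 10.31 in Ly49C/I+ cells against 10.06, 10.15 and 10.03 in Ly49G2+ cells. Of its 9 probe sets, 8 were higher on every Ly49C/I+ array, and the ninth, described among the other observations, went the other way. Taken as the median of its probe sets on each array, Idi1 had a log2 difference of 0.29 and a limma adjusted p of 0.0433. In the authors' deposited table Fdps has a ratio of 1.08 and an adjusted p of 0.0175, whereas the limma adjusted p was 0.220. With only the probe sets above the lower quartile of all probe sets (5.84), Fdps differed by 0.15 (limma adjusted p = 0.0759). The kinases Mvk and Pmvk had log2 differences of 0.09 and 0.04, with 95% intervals of -0.02 to 0.20 and -0.09 to 0.17, and the decarboxylase Mvd had -0.03, with a 95% interval of -0.14 to 0.09.

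From squalene onward, 2 of 11 enzymes passed, both higher in Ly49C/I+ cells, where 6.16% of all genes were. Lss, lanosterol synthase, which folds oxidised squalene into the first sterol, had log2 signals of 10.76, 10.68 and 10.71 in Ly49C/I+ cells against 10.38, 10.43 and 10.37 in Ly49G2+ cells. The gap between the subsets was several times the spread within either, with means of 10.71 ± 0.040 and 10.39 ± 0.031 (SD, n = 3 each). The log2 difference was 0.32 ± 0.044 (SE), or 1.25-fold, with a limma adjusted p of 0.00148. All 22 probe sets of Lss had a positive difference, and 19 of them were higher on every Ly49C/I+ array. The authors' deposited table gives Lss a ratio of 1.24.

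Nsdhl, a dehydrogenase that helps to strip methyl groups from the sterol ring, had 9.99, 9.99 and 9.95 in Ly49C/I+ cells against 9.80, 9.59 and 9.83 in Ly49G2+ cells. The Ly49C/I+ arrays were alike, and Ly49G2+ replicate 2 lay below its group. The log2 difference was 0.24 ± 0.065 (SE), or 1.18-fold, with a limma adjusted p of 0.0444. Without Ly49G2+ replicate 2 it was 0.16, with an adjusted p of 0.0605. The call failed in 10 of 18 alternative analyses, over which the limma adjusted p ranged from 0.0121 to 0.215 (0.0994 from the authors' deposited table).

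Dhcr7, which completes cholesterol by reducing its last double bond, had 9.95, 9.93 and 9.87 in Ly49C/I+ cells against 9.77, 9.69 and 9.79 in Ly49G2+ cells. The arrays did not overlap, all 11 probe sets had a positive difference, and the log2 difference of 0.17 ± 0.047 (SE) had a limma adjusted p of 0.0529. As the median of its probe sets, Dhcr7 differed by 0.33 (limma adjusted p = 0.0297). Hsd17b7 and Ebp, a sterol reductase and a sterol isomerase, had log2 differences of 0.14 and 0.12 with no overlap of their arrays. Their limma adjusted p-values were 0.103 and 0.126. Sqle, the squalene epoxidase that controls flux into sterols, had a log2 difference of 0.08 and no overlap, but a 95% interval of -0.03 to 0.18.

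The remaining enzymes of this arm had differences nearer to 0. Sc5d, a sterol desaturase, had a log2 difference of 0.05 with a 95% interval of -0.05 to 0.14. Fdft1, squalene synthase, had 0.02 with an interval of -0.08 to 0.13, and Msmo1 (Sc4mol on the array), a sterol methyl oxidase, had 0.03 with an interval of -0.08 to 0.15. Cyp51, the lanosterol demethylase, had -0.03 with an interval of -0.20 to 0.15, and Tm7sf2, a sterol reductase, had -0.08 with an interval of -0.24 to 0.07. Differences of the size seen for Lss lay outside all of these intervals.

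**Figure D2:**
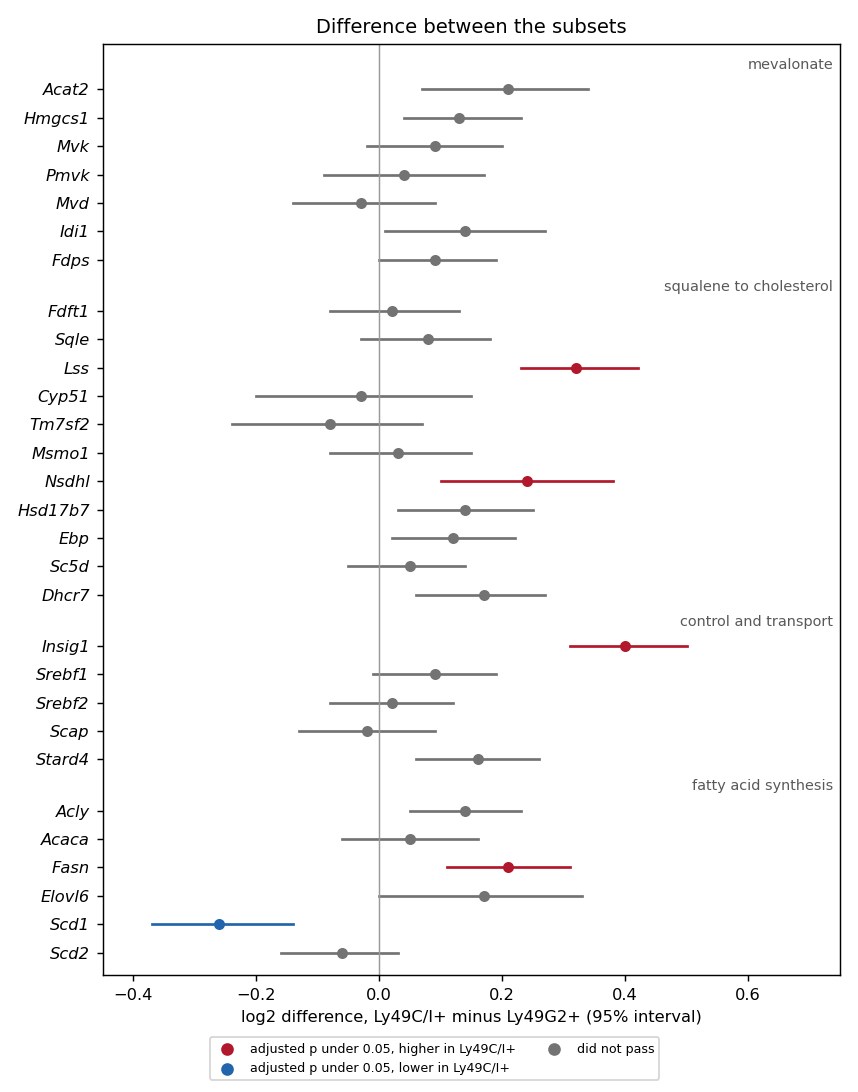
Log2 difference between the subsets (Ly49C/I+ minus Ly49G2+) of each of the 29 genes, with its 95% interval from the limma fit. Red marks Insig1, Lss, Nsdhl and Fasn, higher in Ly49C/I+ cells, blue marks Scd1, lower there, and grey marks the 24 genes that did not pass.

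In fatty acid synthesis, 1 of 6 genes was higher and 1 lower in Ly49C/I+ cells, where 6.16% and 3.72% of all genes were. Fasn, the synthase that builds palmitate, had log2 signals of 11.16, 11.06 and 11.12 in Ly49C/I+ cells against 10.91, 10.90 and 10.89 in Ly49G2+ cells. The arrays were well separated, with a log2 difference of 0.21 ± 0.045 (SE), or 1.16-fold, and a limma adjusted p of 0.0142. Of its 47 probe sets, 43 had a positive difference and 26 were higher on every Ly49C/I+ array. The call for Fasn was lost in 5 of 18 alternative analyses, with a limma adjusted p of 0.213 for the median of the probe sets. Leaving out Ly49C/I+ replicate 1 gave 0.0589, Ly49C/I+ replicate 3 gave 0.054 and Ly49G2+ replicate 3 gave 0.0531 as its limma adjusted p.

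Scd1, the desaturase that turns saturated into monounsaturated fatty acids and is a target of both SREBP and LXR, was the 1 member that passed as lower in Ly49C/I+ cells. It had 9.84, 9.97 and 9.84 in Ly49C/I+ cells against 10.15, 10.10 and 10.16 in Ly49G2+ cells. The arrays did not overlap, and Ly49C/I+ replicate 2 was the nearest to the other subset. The log2 difference was -0.26 ± 0.050 (SE), with a limma adjusted p of 0.0102, which makes Scd1 1.19-fold higher in Ly49G2+ cells. All 9 of its probe sets had a negative difference. As the median of its probe sets Scd1 differed by -0.42, and its call was lost in 2 of 18 alternative analyses, with a limma adjusted p of 0.0519 without Ly49C/I+ replicate 3. The related Scd2 had 12.74, 12.78 and 12.78 in Ly49C/I+ cells against 12.84, 12.86 and 12.80 in Ly49G2+ cells, with a log2 difference of -0.06 and a 95% interval of -0.16 to 0.03.

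The enzymes that feed the synthase did not pass. Acly, which makes cytosolic acetyl-CoA from citrate, had 10.74, 10.71 and 10.70 in Ly49C/I+ cells against 10.58, 10.57 and 10.57 in Ly49G2+ cells. These values were tightly grouped and separate, with a log2 difference of 0.14 ± 0.041 (SE) and a limma adjusted p of 0.0580. The authors' deposited table gives Acly a ratio of 1.10 and an adjusted p of 0.0377. Acaca, which makes malonyl-CoA, had overlapping arrays and a log2 difference of 0.05, with a 95% interval of -0.06 to 0.16. Elovl6, which lengthens palmitate, had 9.44, 9.70 and 9.50 in Ly49C/I+ cells against 9.42, 9.27 and 9.43 in Ly49G2+ cells. Its subsets were almost in contact, and the log2 difference of 0.17 ± 0.074 (SE) had a limma adjusted p of 0.206. Without Ly49C/I+ replicate 2 the difference of Elovl6 was 0.09, and as the median of its probe sets it was -0.04.

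The exon-level probe sets give a second view of the same arrays. The 29 genes held 381 probe sets, of which 133 (34.9%) were higher on every Ly49C/I+ array and 18 (4.72%) lower on every one. Over all probe sets of named genes these shares were 9.9% and 8.7%, again not matched for signal level. Probe sets of a gene share its RNA and the same 6 samples, so they are not replicates. In Cyp51 and Scap the few separated probe sets were lower in Ly49C/I+ cells, 4 of 13 and 5 of 24.

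**Figure D3:**
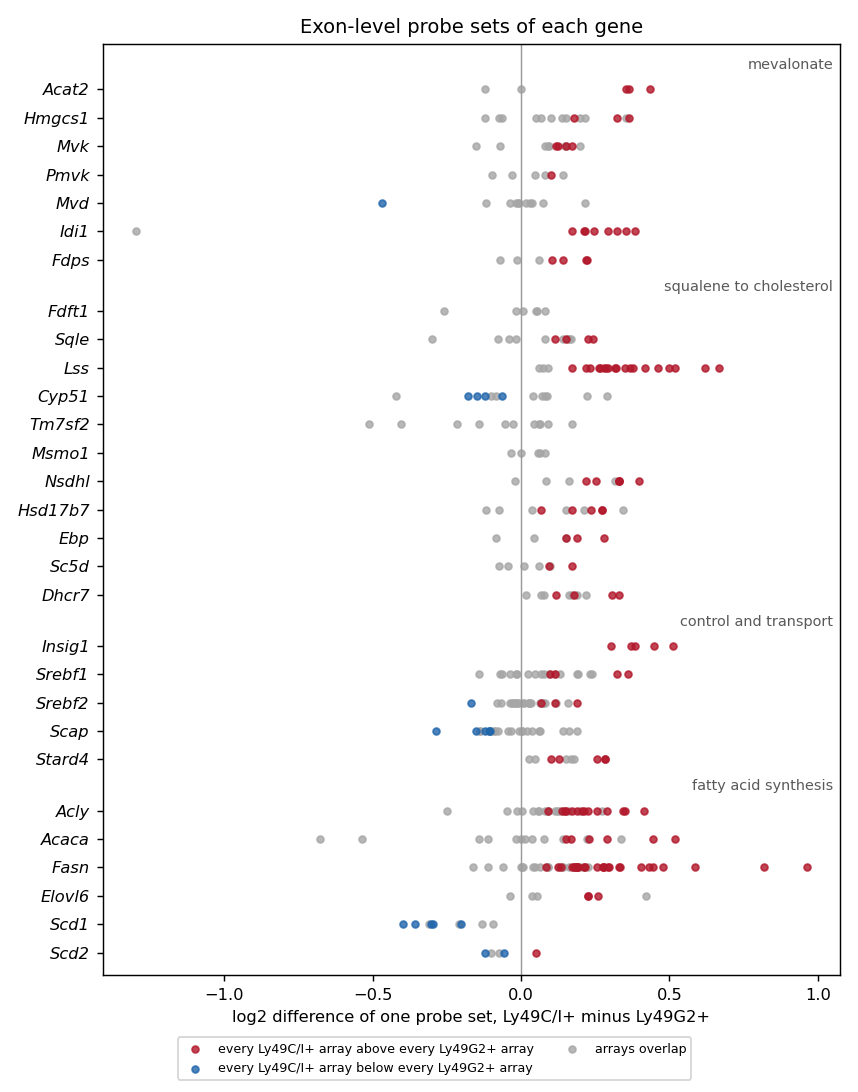
Log2 difference (Ly49C/I+ minus Ly49G2+) of each of the 381 exon-level probe sets, by gene. Red points are the 133 probe sets that were higher on every Ly49C/I+ array, blue points the 18 that were lower on every one, and grey points those whose arrays overlap; all 5 probe sets of Insig1 are red, and 1 probe set of Idi1 stands at -1.30.

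Promoters are shown for the genes that were higher in Ly49C/I+ cells, and for Hmgcs1, which did not pass. Of the letters marked, only CCAAT is shared by all of them. The windows run from 250 bases before to 50 bases after the start of transcription, from RefSeq on GRCm38.p6, read along the gene's strand, and 23 of the 29 genes matched an entry (all but Fdps, Fdft1, Sqle, Stard4, Scd1 and Scd2). Capitals mark CCAAT, the box bound by NF-Y, on either strand (ATTGG on the other). In Insig1 they also mark the E-box CACGTG, and in Hmgcs1 also TCACCCCAC, a match to the sterol regulatory element letters TCACNCCAC. Neither of these was in the other promoters shown, and GGGCGG is not marked.
Insig1 (chr5:28071162-28071461, + strand): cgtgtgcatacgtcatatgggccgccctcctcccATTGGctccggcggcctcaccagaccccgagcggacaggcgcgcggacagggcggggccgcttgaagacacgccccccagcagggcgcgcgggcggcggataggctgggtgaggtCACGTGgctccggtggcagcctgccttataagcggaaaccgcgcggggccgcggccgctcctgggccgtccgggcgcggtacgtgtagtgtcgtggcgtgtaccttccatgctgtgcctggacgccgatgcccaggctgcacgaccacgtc
Lss (chr10:76531355-76531654, + strand): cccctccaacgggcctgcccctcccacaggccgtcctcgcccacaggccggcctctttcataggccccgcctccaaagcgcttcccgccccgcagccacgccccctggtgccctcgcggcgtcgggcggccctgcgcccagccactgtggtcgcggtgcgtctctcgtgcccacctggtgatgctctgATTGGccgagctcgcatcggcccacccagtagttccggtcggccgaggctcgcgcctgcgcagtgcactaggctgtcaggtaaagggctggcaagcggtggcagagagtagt
Nsdhl (chrX:72918271-72918570, + strand): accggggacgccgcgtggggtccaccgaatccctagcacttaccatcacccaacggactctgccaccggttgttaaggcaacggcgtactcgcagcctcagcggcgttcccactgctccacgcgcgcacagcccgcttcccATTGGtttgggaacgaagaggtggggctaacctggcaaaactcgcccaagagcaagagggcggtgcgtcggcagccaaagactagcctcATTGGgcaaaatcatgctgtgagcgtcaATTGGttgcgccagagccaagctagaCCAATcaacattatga
Fasn (chr11:120824498-120824797, - strand): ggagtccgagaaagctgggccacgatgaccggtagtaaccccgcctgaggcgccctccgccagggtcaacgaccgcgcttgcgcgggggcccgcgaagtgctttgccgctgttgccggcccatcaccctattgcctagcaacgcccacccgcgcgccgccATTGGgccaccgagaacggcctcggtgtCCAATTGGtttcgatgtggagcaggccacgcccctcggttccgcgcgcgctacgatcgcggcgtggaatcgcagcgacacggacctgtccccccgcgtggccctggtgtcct
Hmgcs1 (chr13:119690101-119690400, + strand): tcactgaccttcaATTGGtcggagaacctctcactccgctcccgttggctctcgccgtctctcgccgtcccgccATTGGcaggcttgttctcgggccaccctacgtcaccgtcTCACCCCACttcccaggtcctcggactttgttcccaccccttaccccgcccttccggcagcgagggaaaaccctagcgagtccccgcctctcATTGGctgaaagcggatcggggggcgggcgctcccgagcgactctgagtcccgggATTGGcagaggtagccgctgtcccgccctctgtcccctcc

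Of the 23 genes with a promoter entry, 19 (82.6%) held CCAAT on either strand, as did 41.1% of the 27025 genes in the table. Acaca, Acat2, Elovl6 and Scap did not hold it. Nsdhl and Hmgcs1 each held it 4 times, Fasn 3 times (the last 2 overlapping by 2 bases), and Insig1 and Lss once each. GGGCGG, the GC box, was in 19 of the 23 as well, against 38.2% of all genes. The E-box CACGTG was in 5 of the 23 and 8.09% of all genes, and TCACNCCAC was in 1 of the 23, Hmgcs1, and 1.44% of all genes. Genes with several starts were counted once if any window held the letters. Genes that passed and genes that did not both held CCAAT, as Cyp51, Tm7sf2, Mvd and Msmo1 did too.

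A wider set of 72 lipid genes places these results in the pathway. Of 17 other genes of sterol synthesis, uptake and control, 2 were higher and 2 lower in Ly49C/I+ cells. Over all genes 6.16% were higher and 3.72% lower. Lbr, a nuclear envelope protein that is also a sterol reductase, was 1.14-fold higher (adjusted p = 0.0192 in the limma fit), a call lost in 6 of 18 alternative analyses, with an adjusted p of up to 0.248. Rnf139, a ubiquitin ligase of the endoplasmic reticulum, was 1.14-fold higher (limma adjusted p = 0.0357), but the authors' deposited table gives it a ratio of 0.991. The call for Rnf139 failed in 10 of 18 alternative analyses.

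In contrast, Npc1, which exports cholesterol from lysosomes, had 11.53, 11.58 and 11.56 in Ly49C/I+ cells against 11.80, 11.81 and 11.82 in Ly49G2+ cells. These sets were tight and separate, with a log2 difference of -0.25 ± 0.041 (SE) and a limma adjusted p of 0.00386. With the median of its probe sets Npc1 did not pass (limma adjusted p = 0.392). Erlin1, a membrane protein that takes part in sterol sensing, had a log2 difference of -0.29 ± 0.058 (SE) with a limma adjusted p of 0.0122, and did not pass in 3 of 18 alternative analyses.

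Among 26 other genes of fatty acid and glycerolipid synthesis, 2 were higher and 2 lower, where 6.16% and 3.72% of all genes were. Acss2, which makes acetyl-CoA from acetate and is an SREBP target, had 9.10, 9.06 and 9.10 in Ly49C/I+ cells against 8.81, 8.81 and 8.83 in Ly49G2+ cells. The arrays of each subset nearly coincided, with a log2 difference of 0.27 ± 0.041 (SE) and a limma adjusted p of 0.00283. Slc25a1, the mitochondrial citrate carrier that supplies Acly, was 1.12-fold higher (limma adjusted p = 0.0430), a call lost in 10 of 18 alternative analyses. Fads3, a desaturase relative, had 7.94, 7.69 and 7.79 in Ly49C/I+ cells against 8.43, 8.43 and 8.45 in Ly49G2+ cells. This was the widest gap among the 72 genes, at -0.63 ± 0.061 (SE) on the log2 scale with a limma adjusted p of 0.000276. Hacd2, a dehydratase of fatty acid elongation, had a log2 difference of -0.23 ± 0.044 (SE) and a limma adjusted p of 0.00979. With the median of its probe sets Hacd2 differed by -0.43, and it did not pass in the authors' deposited table (adjusted p = 0.0937).

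The genes of sterol export and LXR were mixed, with 5 of 13 differences above 0, beside 45.6% over all genes. Of these 13, 0 were higher and 1 lower in Ly49C/I+ cells, where 6.16% and 3.72% of all genes were. At an unadjusted limma p under 0.05, 1 was higher and 4 lower, where 12.3% and 10.7% of all genes were. Without overlap of the arrays, 1 was higher and 4 lower, where 14.3% and 13.5% of all genes were. The gene that passed was Abca1, the cholesterol exporter and LXR target. It had 7.66, 7.56 and 7.50 in Ly49C/I+ cells against 7.96, 7.99 and 8.06 in Ly49G2+ cells. The arrays did not overlap, and the log2 difference was -0.43 ± 0.053 (SE), or 1.35-fold higher in Ly49G2+ cells, with a limma adjusted p of 0.000939. The related exporter Abcg1 and the lipoprotein gene Apoe, both chosen after their values were seen, had log2 differences of -0.17 and -0.18 with limma adjusted p-values of 0.0711 and 0.0525. Nr1h2 and Nr1h3, which encode the LXR receptors, had 0.05 and -0.11 and did not pass.

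Of 16 fatty acid oxidation genes, 1 was higher and 1 lower, where 6.16% and 3.72% of all genes were. Ppargc1a, a coactivator of mitochondrial genes, had 7.37, 7.42 and 7.38 in Ly49C/I+ cells against 7.14, 7.04 and 7.06 in Ly49G2+ cells. These were well apart, with a log2 difference of 0.30 ± 0.046 (SE) and a limma adjusted p of 0.00257, but Ppargc1a did not pass with the median of its probe sets (limma adjusted p = 0.0988). Cpt1a, which admits fatty acids to mitochondria, had a log2 difference of -0.17 ± 0.044 (SE) with a limma adjusted p of 0.0424, and lost its call in 11 of 18 alternative analyses. Over all 72 genes, 5 were higher and 6 lower, or 11 in all, where 9.88% of all genes passed, and their median log2 difference was -0.034.

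**Figure D4:**
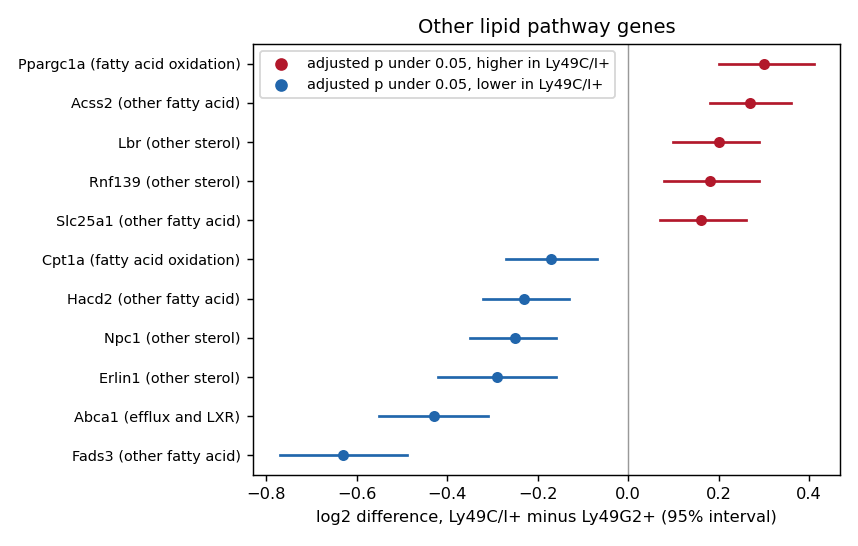
Log2 difference (Ly49C/I+ minus Ly49G2+) with its 95% interval for the 11 genes that passed among the 72 other lipid genes. Ppargc1a and Acss2 are at the upper end, Abca1 and Fads3 at the lower end.

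The groups can also be set beside each other by array. The mean deviation of the 7 mevalonate genes was 0.076, 0.042 and 0.027 on the Ly49C/I+ arrays and -0.061, -0.036 and -0.049 on the Ly49G2+ arrays. For the 11 genes from squalene onward it was 0.055, 0.066 and 0.025 on the Ly49C/I+ arrays and -0.036, -0.092 and -0.018 on the Ly49G2+ arrays, with Ly49G2+ replicate 2 lowest. The 6 fatty acid genes had means nearer to 0, since Scd1 and Scd2 ran opposite to the other 4. The arrays of 5 of the 6 did not overlap, with 3 higher and 2 lower in Ly49C/I+ cells. Over all genes 14.3% were higher and 13.5% lower without overlap. The means of the 6 genes were 0.011, 0.040 and 0.015 on the Ly49C/I+ arrays and -0.005, -0.044 and -0.017 on the Ly49G2+ arrays. The 17 other sterol genes showed no such order, at 0.034, -0.044 and -0.040 on the Ly49C/I+ arrays and 0.017, 0.021 and 0.012 on the Ly49G2+ arrays. The 13 export and LXR genes were at -0.018, -0.016 and -0.057 on the Ly49C/I+ arrays and 0.020, 0.043 and 0.027 on the Ly49G2+ arrays. The proliferation genes stood at 0.187, 0.188 and 0.186 on the Ly49C/I+ arrays and -0.175, -0.218 and -0.169 on the Ly49G2+ arrays.

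**Figure D5:**
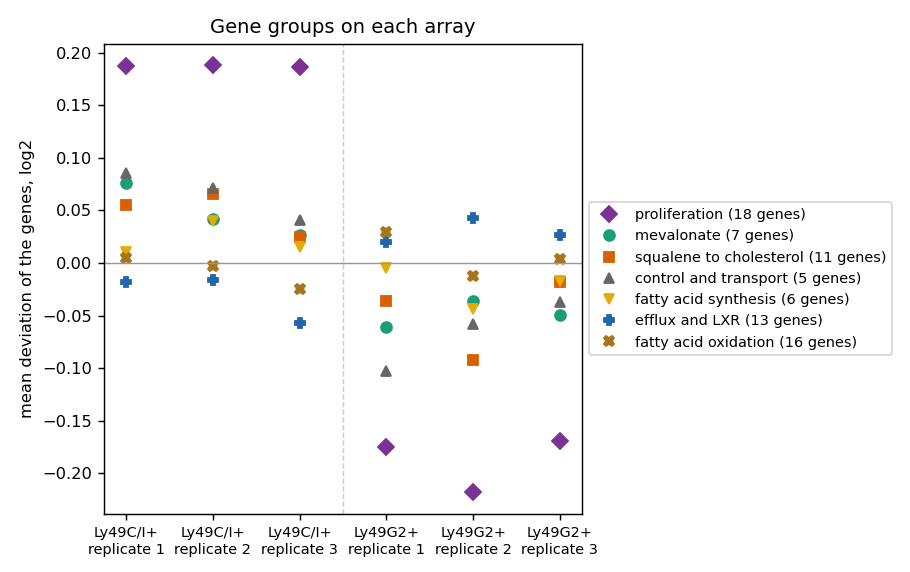
Mean deviation of each gene group on each array, in log2 units, where a gene's deviation is its signal minus its mean over 6 arrays. Of the 29 genes, the mevalonate, squalene to cholesterol, control and fatty acid groups lie above 0 on all Ly49C/I+ arrays. They lie below 0 on all Ly49G2+ arrays. The export and LXR genes lie the other way, with 1 of 13 passing, where 9.88% of all genes passed in either direction. Of the 7 groups drawn, the proliferation genes lie farthest from 0, and that list had moved in earlier results of these data.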

How the data were processed

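RNA of 3 Ly49C/I+ and 3 Ly49G2+ samples was hybridised to an Affymetrix whole-transcript array. Per the labels' protocols, 100 ng of RNA with an integrity number above 9 was amplified. The authors deposited log2 values of 241576 exon-level probe sets. Partek and RMA are named in the submitters' processing notes, and versions and genome build are not given in the sources used here. The authors also deposited, for 35556 transcript clusters, group means on the log2 scale, a ratio (Ly49C/I+ over Ly49G2+), a signed fold score and an unadjusted ANOVA p-value, per the file headers, with F and sums of squares as other values.

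Each probe set was assigned to the cluster whose ID its own ID follows without a break (241383 joined, 193 left out). Checked against the deposited group means, the cluster means correlated at r = 0.990 across clusters for each subset (clusters are not independent replicates). Symbols were updated through RefSeq accessions (GRCm38.p6), for 1926 clusters. Log2 values were averaged over probe sets, then over clusters, per gene. Differences were tested over 21442 genes with limma 3.58.1 in R 4.3.3 (lmFit, eBayes, two-sided, Benjamini-Hochberg, threshold 0.05). The fit was also run on simulated data with noise independent between genes, which cannot show how it behaves under noise that genes share. Joins and figures used Python 3.11.15, pandas 2.3.3, numpy 2.4.6 and matplotlib 3.10.9. The authors' p-values were adjusted over 24692 named clusters, with the brightest cluster standing for a gene. Arrays give no read depth, and 3 per group limit the precision.

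The genes and lists were chosen with earlier results of these data known. All 29 genes are named; from the other lists, those with adjusted p under 0.05. Some genes of the pathway are not reported here and were left out of the lists. At most 6 are named per list, by lowest p. Abcg1, Apoe, Nr1h2 and Nr1h3 were added after their values were seen. The replicate numbers were not treated as pairs.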

Additional observations from a re-analysis of the deposited data

How the results depend on the processing

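Insig1, Lss, Acss2, Fads3 and Abca1 passed in all 18 alternative analyses, with their direction kept. Of the log2 differences of single named genes, recomputed under each alternative, 623 kept their direction and their side of the threshold, 28 newly passed, 59 no longer passed and 10 changed sign. Of the 10, Rnf139 had been called and was at -0.013 in the authors' deposited table. The rest were from genes called in no analysis. Mvd was at 0.003 with array weights, Fdft1 at -0.014 with probe sets weighted equally and Elovl6 at -0.037 with the median over probe sets. With 1 array left out, Mvd ranged from -0.067 to 0.010, Cyp51 from -0.117 to 0.034, Msmo1 from -0.006 to 0.067 and Scap from -0.069 to 0.0. The cause was not tested. Genes called over all genes numbered 2118 (1321 higher, 797 lower in Ly49C/I+ cells). They were 898 (554 and 344) without variance moderation, 691 (467 and 224) with the median over probe sets and 1236 (757 and 479) in the authors' deposited table. Of the 29 genes, 5 passed (4 higher, 1 lower). That became 10 (9 higher) with a variance trend and robust moderation, where 12.3% of all genes passed, and 9 (8 higher) among genes above the 25th percentile, where 14.5% of 16081 did. It was 11 (10 higher) among genes above the median, where 23.8% of 10721 did, and 8 (7 higher) with array weights, where 11.8% did. Without moderation 0 of the 29 were lower, where 1.6% of all genes were. The median difference of the 29 genes was 0.133 with the median over probe sets. Of the 72 other lipid genes, 11 passed (5 higher, 6 lower). This was 17 (23.6%, with 8 higher) with a variance trend and robust moderation, beside 12.3% of all genes. It was 7 (9.72%, with 3 higher) without moderation, beside 4.19% of all genes. Among genes above the median it was 18 of 59 (30.5%, with 8 higher and 10 lower), beside 23.8% of all. With the median over probe sets it was 4 (5.56%, with 1 higher and 3 lower), beside 3.22% of all genes. With brighter probe sets only, 3 of 70 were higher, where 5.41% of all genes were.

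Leaving out 1 array at a time gave 1351 to 1877 calls over all genes (859 to 1112 higher, 410 to 765 lower). Among the 29 genes it gave 2 to 5 calls (2 to 4 higher, 0 to 1 lower), with a median difference of 0.073 to 0.115. There were 3 calls without Ly49C/I+ replicate 1, where 6.73% of all genes passed. There were 2 without Ly49C/I+ replicate 3, where 6.54% of all genes passed, and Scd1 did not pass there. Among the 72 genes it gave 7 to 11 calls (2 to 4 higher, 5 to 7 lower). It was 7 (9.72%) without Ly49C/I+ replicate 2, where 6.3% of all genes passed. It was also 7 without Ly49G2+ replicate 3, where 7.28% of all genes passed.

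The titles give both subsets replicate numbers 1 to 3, but same-numbered arrays did not deviate together (r = -0.076, -0.186 and -0.046 across genes), so the numbers were not taken as pairs. With the replicate block, 1476 genes passed (981 higher, 495 lower), or 6.88% of all genes. There 4 of the 29 genes passed (3 higher), and 8 of the 72 (11.1%, with 2 higher and 6 lower). Weighting all probe sets of a gene equally, chosen after seeing the data, gave 5 calls among the 29, where 9.96% of all genes passed. With 3 arrays per subset, the standard errors of the 29 differences were 0.041 to 0.077, which limits what can be said of the smaller ones.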

Other observations

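Idi1 is read by 9 probe sets in 2 clusters on the array. Of these, 8 had log2 differences of 0.17 to 0.38, each higher on every Ly49C/I+ array. The other had 6.27, 4.15 and 6.84 in Ly49C/I+ cells against 6.87, 7.69 and 6.59 in Ly49G2+ cells, a difference of -1.30 that rests mainly on Ly49C/I+ replicate 2. The cluster of 6 probe sets that holds it differed by 0.03, and the cluster of 3 by 0.25. The authors' deposited table gives the clusters ratios of 1.17 and 1.18, with unadjusted p-values of 0.00361 and 0.00522.

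Acaca is also split. The authors' deposited table gives its cluster of 15 probe sets a ratio of 1.16 with an unadjusted p of 0.0187, and its cluster of 3 a ratio of 1.01 with a p of 0.732. The means over probe sets gave these clusters log2 differences of 0.07 and 0.03. The lowest difference among the 15 was -0.68, and it rests mainly on Ly49C/I+ replicate 2. That probe set had 8.27, 5.36 and 8.27 in Ly49C/I+ cells against 7.96, 8.21 and 7.76 in Ly49G2+ cells. In Scap the cluster of 23 probe sets has a ratio of 0.946 in the authors' deposited table, and the cluster with a single probe set 0.999. The means over probe sets gave them log2 differences of -0.04 and -0.01, and the single probe set had signals of 6.56 to 6.73. Fdft1 has a cluster of 5 probe sets at -0.03 and a single probe set at 0.08. In both genes the clusters counted equally, so the single probe set weighs heavily. By the unadjusted p-values in the authors' deposited table, once adjusted over its named clusters, the 5 genes higher in Ly49C/I+ cells were Insig1, Lss, Fasn, Fdps and Acly, and the 1 lower was Scd1.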
